A study of Mus musculus with 24 samples.

Results

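The genes described here encode large-pore membrane channels of 3 families: the calcium homeostasis modulators Calhm2 and Calhm6, the pannexin Panx1, and the leucine-rich repeat channel subunits Lrrc8a, Lrrc8b, Lrrc8c and Lrrc8d. They were taken by gene symbol, 7 of the 14 genes that the annotation holds for these families and 7 of the 52636 gene models counted. They were chosen by name and selected on their read counts, with the earlier results of these libraries known, so being detected is no finding, and the tests below describe these genes without independent support for why they were chosen. No count threshold is stated for the choice. Panx1 had the fewest reads of the 7, with 229 to 512 per library. Of the family genes left out, Calhm5 had the most, with 6 to 21. The other family genes had 0 to 25 reads in all 24 libraries together, namely 0 for Calhm3 and Panx2, 1 for Calhm4 and Panx3, 2 for Calhm1 and 25 for Lrrc8e.

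PolyA RNA of macrophages grown from mouse bone marrow was sequenced as single reads of 50 bases. Cells of wild-type C57BL/6 mice (WT) and of Ninj1 knockout mice (KO) were kept in media alone or stimulated with Pam3, a common short name for the synthetic lipopeptide Pam3CSK4, which is sensed by TLR2 together with TLR1. The groups were WT_media, KO_media, WT_Pam3 and KO_Pam3, with 6 libraries each and no agent or allele shared by all of them. The labels used here do not give the design of the knockout allele, the strain of the KO mice, the age of the mice or the dose and duration of Pam3. Whether a group's 6 libraries stand for as many mice or cultures is likewise unstated, so p-values measure the spread between these libraries, which may be technical.

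Each library held 31302011 to 40663152 reads counted in genes. Ninj1, whose product ruptures the plasma membrane in dying cells, had 151 to 179 CPM (counts scaled to library size by the TMM method) in KO_media against 289 to 325 in WT_media, and 409 to 479 in KO_Pam3 against 646 to 1145 in WT_Pam3, so its RNA was lower in every KO library but not lost. Xist was read in all 24 libraries (233 to 796 CPM) while of the Y-linked genes Eif2s3y and Kdm5d had 0 reads, Uty 1 and Ddx3y 27 in all, whereas the labels call the WT mice male and leave the sex of the KO mice blank. All 10 fixed macrophage markers were tested, and their lowest levels in any library ran from 19.3 CPM for Mertk to 18404 CPM for Lyz2. WT_Pam3 replicate 5 stood apart from the other WT_Pam3 libraries for several of the channel genes, and the values of the channel genes that rest on it are also given without it.

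CALHM, pannexin and LRRC8 proteins form wide pores that let ATP, ions and small organic molecules across the plasma membrane. PANX1 channels are opened when proteolysis removes their inhibitory tail, and the ATP they release is sensed by purinergic receptors on nearby cells. LRRC8 proteins assemble into the volume-regulated anion channel, in which LRRC8A is the obligatory subunit and LRRC8B to LRRC8E set which osmolytes and solutes pass, cyclic dinucleotides among them. CALHM6 is known from macrophages and dendritic cells as an interferon-inducible protein that helps them activate natural killer cells, and CALHM2 from microglia.

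All 7 genes matched a RefSeq promoter window on GRCm38.p6. The windows of Calhm6 and Lrrc8c are shown because these genes had the largest differences between Pam3 and media of the 7, and those of Lrrc8b and Lrrc8d because they flank Lrrc8c on chromosome 5. Each line gives bases upstream of the gene model, 5′ to 3′ on the gene's strand, with a motif match in capitals. The coordinates are chr10:34127985-34128222 (minus strand) for Calhm6, chr5:105519221-105519387 (plus strand) for Lrrc8c, chr5:105415525-105415774 (plus strand) for Lrrc8b and chr5:105699719-105699968 (plus strand) for Lrrc8d.
Calhm6: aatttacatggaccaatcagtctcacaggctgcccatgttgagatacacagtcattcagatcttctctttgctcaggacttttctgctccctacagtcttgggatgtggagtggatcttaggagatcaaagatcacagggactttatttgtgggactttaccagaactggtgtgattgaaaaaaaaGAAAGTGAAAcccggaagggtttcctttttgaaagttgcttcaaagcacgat
Lrrc8c: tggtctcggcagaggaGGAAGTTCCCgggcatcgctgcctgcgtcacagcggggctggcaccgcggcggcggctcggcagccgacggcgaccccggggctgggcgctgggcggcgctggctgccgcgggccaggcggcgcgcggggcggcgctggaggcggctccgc
Lrrc8b: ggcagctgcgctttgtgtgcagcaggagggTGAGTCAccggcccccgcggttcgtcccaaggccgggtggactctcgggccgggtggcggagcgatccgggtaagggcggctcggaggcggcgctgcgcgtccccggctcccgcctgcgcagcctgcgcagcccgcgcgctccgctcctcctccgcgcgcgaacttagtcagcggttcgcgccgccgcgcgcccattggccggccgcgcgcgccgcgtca
Lrrc8d: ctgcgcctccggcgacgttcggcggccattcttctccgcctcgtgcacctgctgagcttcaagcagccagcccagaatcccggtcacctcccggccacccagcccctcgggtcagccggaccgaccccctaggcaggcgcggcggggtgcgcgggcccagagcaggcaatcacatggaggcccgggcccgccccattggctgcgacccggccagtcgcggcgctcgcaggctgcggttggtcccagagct

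In Calhm6 the capitals mark a match to the interferon-stimulated response element, searched as GAAA, any 2 bases and GAAA, at 55 to 64 bases before the RefSeq start. Both strands of the 250 bases before each start were searched, and 2.98% of all 32851 windows held that motif. The capitals in Lrrc8c mark a kappaB match, searched as GGGA, any 2 bases and TTCC, and found on the other strand, 225 to 234 bases before the start (1.21% of windows). In Lrrc8b they mark an AP-1 match, searched as TGANTCA, at 214 to 220 bases before the start (6.75% of windows). The Lrrc8b window also overlaps the gene model Gm32051. No match to these 3 motifs or to the gamma-activated site TTCNNNGAA (7.02% of windows) was found in the windows of Lrrc8d, Calhm2, Panx1 or Lrrc8a. The matches describe letters only, and binding was not measured.

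On GRCm38, Calhm6 (ENSMUSG00000046031) lies on chromosome 10 at 34126067 to 34127984, and Calhm2 (ENSMUSG00000033033) on chromosome 19 at 47105353 to 47138294. Panx1 (ENSMUSG00000031934) lies on chromosome 9 at 15002128 to 15045478 and Lrrc8a (ENSMUSG00000007476) on chromosome 2 at 30237715 to 30263790. The genes Lrrc8b (ENSMUSG00000070639, 105415775 to 105490074), Lrrc8c (ENSMUSG00000054720, 105519388 to 105613018) and Lrrc8d (ENSMUSG00000046079, 105699969 to 105832436) follow one another on the plus strand of chromosome 5 within 417 kb. Values are per gene model, with isoforms not told apart. Of the 50-base stretches of Lrrc8a transcripts, 66.2% also occur in transcripts of Gm28035 or 1700084E18Rik, so its level is uncertain, although Gm28035 held only 161 reads over the 24 libraries. Calhm2 overlaps Pdcd11 on the other strand, shares 7.01% of its stretches with it, and the library kit does not mark strand, so reads of the overlap cannot be assigned to either gene. For Calhm6, Panx1 and Lrrc8b no stretch was shared, and 4.92% of Lrrc8d and 0.183% of Lrrc8c stretches were.

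Between genes, levels were compared as the deposited RPKM, which are scaled by gene length. In WT_media Lrrc8d stood highest (13 to 14.5 RPKM), followed by Calhm6 (9.37 to 10.8), Calhm2 (7.59 to 7.86), Lrrc8c (3.21 to 3.64), Lrrc8b (3.02 to 3.33), Lrrc8a (2.57 to 2.88) and Panx1 (1.35 to 1.67). The ranges of Lrrc8c and Lrrc8b overlapped, and those of the other neighbours in this order did not. In KO_media Calhm6 (11.5 to 17.2, median 13.4) lay over Lrrc8d (12.9 to 13.4, median 13) with overlapping ranges, and Calhm2 (7.48 to 8.37) followed. Lrrc8a (2.52 to 3.14) overlapped both Lrrc8c (2.96 to 3.49) and Lrrc8b (2.47 to 2.91), which did not overlap each other, and Panx1 (1.36 to 1.64) was again lowest. After Pam3 Calhm6 was highest in both genotypes (108 to 172 RPKM in WT_Pam3, 85.5 to 108 in KO_Pam3), Lrrc8c came next (17.7 to 27.2 and 21 to 24.7), and then Lrrc8d (11.7 to 15.2 and 15.4 to 17.4). Calhm2 (5.53 to 6.70 and 4.33 to 5.39) lay above Lrrc8b (2.16 to 4.38 and 3.80 to 4.15), and Panx1 was lowest (1.46 to 2.09 and 1.18 to 1.68). Lrrc8a had 2.21 to 3.21 RPKM in WT_Pam3, overlapping Lrrc8b only through replicate 5 (3.21 for Lrrc8a, 2.16 for Lrrc8b). Without that library Lrrc8a had 2.21 to 2.43 RPKM in WT_Pam3, below Lrrc8b at 4.09 to 4.38. In KO_Pam3 Lrrc8a had 2.39 to 2.66 RPKM, also below Lrrc8b. The place of Lrrc8d depends on the length used: the RPKM imply a length 0.415 times its annotated exons, relative to the median gene. Per kilobase of annotated exons Lrrc8d had 4.88 to 5.42 CPM in WT_media, below Calhm6 (10.6 to 12.1) and Calhm2 (8.49 to 8.89). In KO_media Lrrc8d had 4.88 to 5.07, also below Calhm6 (12.9 to 19.3) and Calhm2 (8.45 to 9.42). By this measure Lrrc8d (4.34 to 5.63) lay below Calhm2 (6.12 to 7.37) in WT_Pam3 as well. In KO_Pam3 the 2 genes overlapped (5.71 to 6.44 for Lrrc8d, 4.77 to 5.95 for Calhm2).

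**Figure D1:**
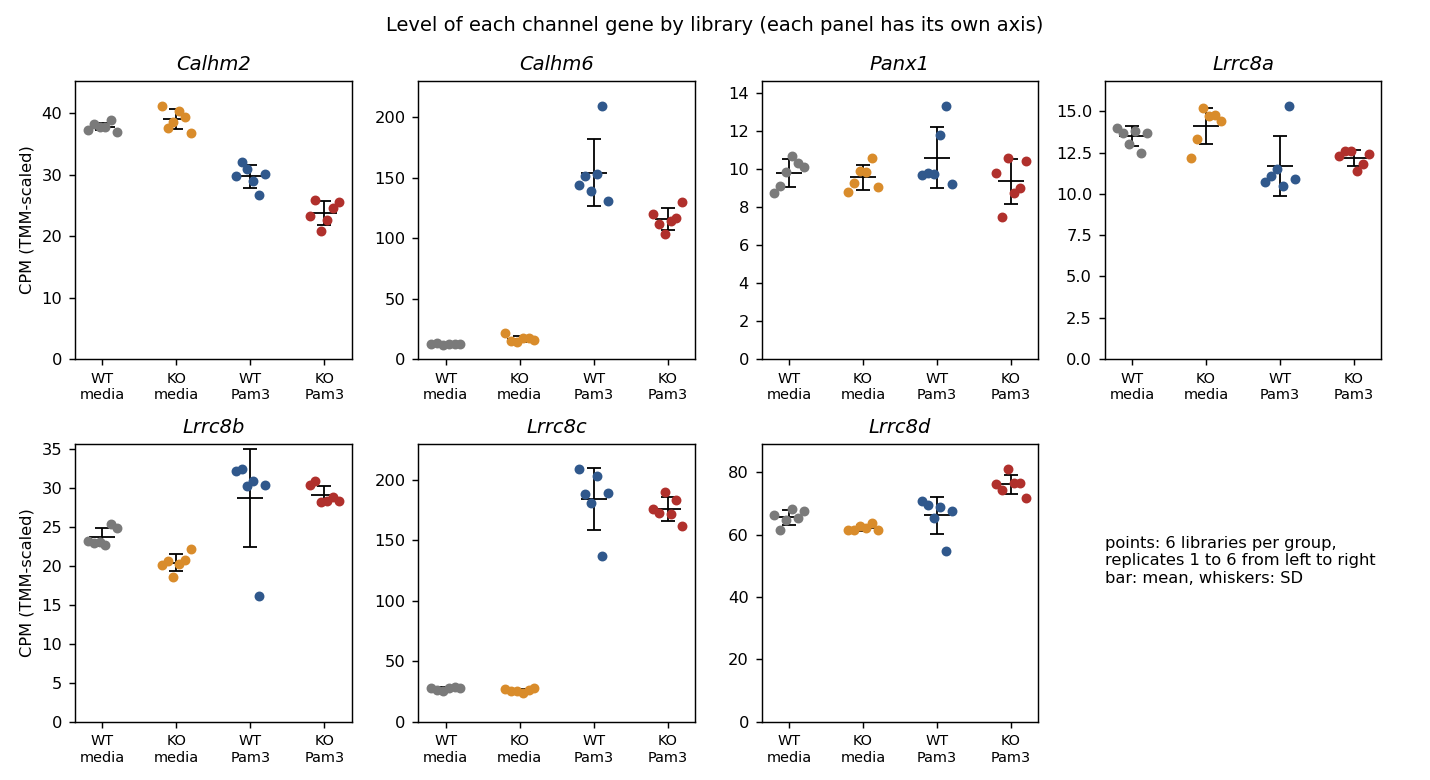
TMM-scaled CPM of each of the 7 channel genes (vertical axis, linear, from 0, own scale in each panel) in the 24 libraries, with points for libraries, a bar for the mean and whiskers for the SD of 6. Calhm6 and Lrrc8c sit far higher in both Pam3 groups, Calhm2 sits lower there, and the fifth WT_Pam3 point lies apart for Calhm6, Lrrc8a, Lrrc8b, Lrrc8c and Lrrc8d.

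Pam3 against media in each genotype shows how the channel genes differed after a TLR2 ligand. Calhm6 and Lrrc8c rose several-fold in both genotypes, Calhm2 fell in both, and Lrrc8b rose and Lrrc8a fell by small amounts. Lrrc8d passed the test in KO and not in WT, and Panx1 passed the test in neither genotype. By edgeR's quasi-likelihood test with Benjamini-Hochberg adjustment over 14435 genes, called at an adjusted p under 0.05, 3 of the 7 rose and 2 fell in WT, and 4 rose and 2 fell in KO. Of all tested genes 84.8% were called in WT (40.6% higher, 44.2% lower) and 85.0% in KO (40.2% higher, 44.8% lower), so the members' shares are near the background. All 6 Pam3 libraries lay above all 6 media libraries for 2 of the 7 in WT and 4 in KO, against 32.5% and 36.0% of tested genes, and below them for 1 of the 7 in each, against 36.4% and 39.7%. The median log2 fold change of the 7 was 0.11 in WT and 0.29 in KO, against -0.05 and -0.07 over all tested genes. In bulk RNA, fewer cells of a type and less RNA per cell cannot be told apart, here and below.

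Calhm6 had 11.6 CPM in the lowest, 12.6 in the median and 13.2 in the highest WT_media library, and 131, 148 and 209 in WT_Pam3. In KO_media the lowest, median and highest were 14.2, 16.6 and 21.2 CPM, and in KO_Pam3 103, 116 and 130. Every Pam3 library lay far above every media library of its genotype. The log2 fold change was 3.62 in WT (SE 0.101, 12.3-fold, adjusted p = 2.62e-22) and 2.79 in KO (SE 0.0973, 6.91-fold, adjusted p = 4.46e-20). WT_Pam3 replicate 5 was the highest library (209 CPM against 131 to 153 in the other 5), and without it the WT value was 3.52.

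Lrrc8c, a subunit found in channels that carry cyclic dinucleotides, had 25.4, 27.7 and 28.6 CPM in the lowest, median and highest WT_media library and 137, 189 and 209 in WT_Pam3. In KO the corresponding levels were 23.4, 26.1 and 27.5 CPM in media and 162, 174 and 190 after Pam3. Media and Pam3 libraries did not overlap in either genotype. Its log2 fold change was 2.76 in both, 6.76-fold in WT (SE 0.073, adjusted p = 8.53e-23) and 6.79-fold in KO (SE 0.0732, adjusted p = 8.26e-23). The lowest WT_Pam3 library was replicate 5, without which the WT value was 2.83.

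Calhm2 was lower after Pam3, with 37.0, 37.8 and 38.8 CPM in the lowest, median and highest WT_media library and 26.7, 29.9 and 32.1 in WT_Pam3. In KO it had 36.8, 38.9 and 41.1 CPM in media and 20.8, 23.9 and 25.9 after Pam3. No Pam3 library reached the media range of its genotype. Calhm2 fell by 0.35 on the log2 scale in WT (SE 0.0481, adjusted p = 2.17e-07) and fell by 0.71 in KO (SE 0.0485, adjusted p = 1.73e-13), and the WT value without WT_Pam3 replicate 5 was -0.32. The 2 listed CALHM genes thus moved in opposite directions.

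Lrrc8a, the obligatory subunit, had 12.5, 13.7 and 14 CPM in WT_media and 10.5, 11.0 and 15.3 in WT_Pam3 (lowest, median, highest), and 12.2, 14.5 and 15.2 in KO_media against 11.4, 12.4 and 12.6 in KO_Pam3. The ranges overlapped in both genotypes, in WT only through replicate 5 of WT_Pam3, whose 15.3 CPM exceeded every WT_media library. Lrrc8a fell by 0.21 on the log2 scale in WT (SE 0.0715, adjusted p = 0.00898) and by 0.21 in KO (SE 0.0707, adjusted p = 0.00778), and without that library the WT value was -0.30.

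Lrrc8b had 22.7, 23.1 and 25.3 CPM in WT_media and 16.1, 30.7 and 32.4 in WT_Pam3, with 18.6, 20.4 and 22.1 in KO_media and 28.2, 28.6 and 30.8 in KO_Pam3. In KO the groups were apart, while in WT 5 Pam3 libraries lay above the media range and replicate 5 lay below it. The log2 fold change was 0.28 in WT (SE 0.0991, adjusted p = 0.0116), 0.40 without replicate 5, and 0.51 in KO (SE 0.0994, adjusted p = 3.27e-05). With the 2 WT groups fitted alone the WT call was lost (0.28, adjusted p = 0.0616), and scaled by library size only Lrrc8b was lower after Pam3 in WT (-0.24, adjusted p = 0.0248) and at 0.03 in KO.

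Lrrc8d, the subunit known for passing taurine and some drugs, had 61.4, 65.8 and 68.2 CPM in WT_media and 54.6, 68.2 and 70.8 in WT_Pam3, and its ranges overlapped. In KO it had 61.3, 61.9 and 63.7 CPM in media and 71.8, 76.3 and 81.0 after Pam3, with no overlap. The log2 fold change was 0.01 in WT (95% interval -0.08 to 0.11, adjusted p = 0.806) and 0.29 in KO (SE 0.0468, adjusted p = 2.34e-06), and without WT_Pam3 replicate 5 the WT value was 0.06. Scaled by library size only these became -0.51 and -0.19, both called lower, since that scaling moves the median of all tested genes to -0.58 in WT and -0.56 in KO. The direction of a change as small as this is therefore relative to the scaling, and Lrrc8d stayed above the median of all genes under it.

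Panx1, the ATP-release channel with the lowest RPKM of the 7 in every group, had 8.73, 9.99 and 10.7 CPM in WT_media and 9.22, 9.77 and 13.3 in WT_Pam3. KO_media had 8.79, 9.55 and 10.6 CPM and KO_Pam3 7.48, 9.39 and 10.6. All 4 ranges overlapped. The log2 fold change was 0.11 in WT (95% interval -0.07 to 0.28, adjusted p = 0.248), 0.03 without WT_Pam3 replicate 5, and -0.03 in KO (95% interval -0.21 to 0.14, adjusted p = 0.723). Under the scaling by library size only, Panx1 was called lower at -0.41 in WT and -0.52 in KO.

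**Figure D2:**
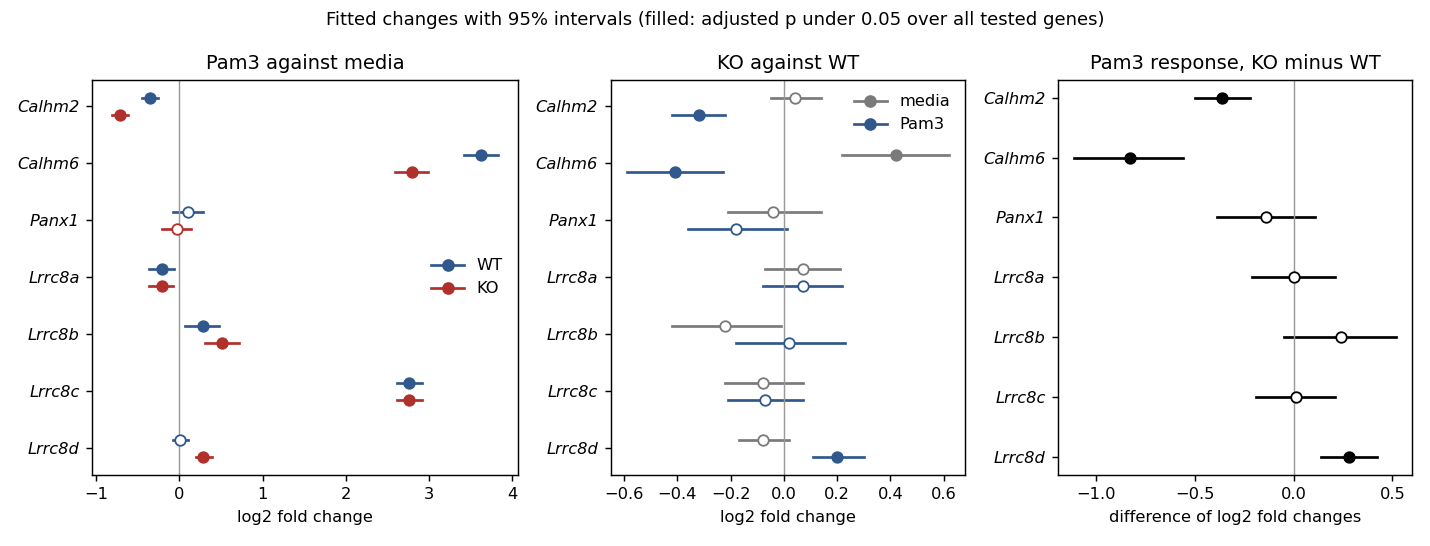
Fitted log2 differences (horizontal axis) with 95% intervals for the 7 channel genes, as Pam3 against media in WT and KO, KO against WT in media and in Pam3, and the KO response to Pam3 minus the WT response. Filled points have an adjusted p under 0.05: Calhm6 and Lrrc8c lie far to the right in the first panel, and Calhm2, Calhm6 and Lrrc8d are filled in the last.

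Because LRRC8 proteins join in one channel, the RNA of each subunit was set against the summed RPKM of Lrrc8a to Lrrc8e in the same library, as a description with no test. Lrrc8d made up 59.5% ± 0.758 (SD, n = 6) in WT_media and 32.0% ± 0.946 in WT_Pam3, and 59.5% ± 0.778 and 35.8% ± 0.486 in KO. The share of Lrrc8c was 15.0% ± 0.420 in WT_media and 53.7% ± 1.72 in WT_Pam3, and 15.0% ± 0.826 and 50.0% ± 0.780 in KO. No library of one treatment reached the Lrrc8c or Lrrc8d range of the other: Lrrc8c spanned 13.7% to 16.0% in the media libraries and 49.1% to 55.6% in the Pam3 libraries. The obligatory subunit Lrrc8a had 12% ± 0.569 and 13.2% ± 0.919 in WT_media and KO_media, and 5.68% ± 1.77 and 5.62% ± 0.303 in WT_Pam3 and KO_Pam3. For Lrrc8b the means were 13.5%, 12.2%, 8.59% and 8.61% in the same order, and the mean of Lrrc8e was at most 0.0278% in any group. Without WT_Pam3 replicate 5 the WT_Pam3 shares were 4.96% for Lrrc8a, 9.07% for Lrrc8b, 54.3% for Lrrc8c and 31.7% for Lrrc8d. Summed LRRC8 RPKM averaged 23.2 and 22.0 in media and 44.6 and 45.7 after Pam3, so the sum grew while its leading subunit changed from Lrrc8d to Lrrc8c. The RPKM ratio of Lrrc8c to Lrrc8a averaged 1.25 and 1.14 in media and 10.1 and 8.92 after Pam3, in WT and KO. Without WT_Pam3 replicate 5 the WT_Pam3 means were 46.6 RPKM for the sum and 11 for this ratio. The Lrrc8a share and this ratio carry the uncertain level of Lrrc8a, 66.2% of whose 50-base stretches also occur in other genes' transcripts. Taking annotated exon lengths in place of the deposited ones put Lrrc8d at 33.8% in both media groups and Lrrc8c at 66.2% in WT_Pam3 and 63.4% in KO_Pam3, and the leading subunit in each group was the same.

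**Figure D3:**
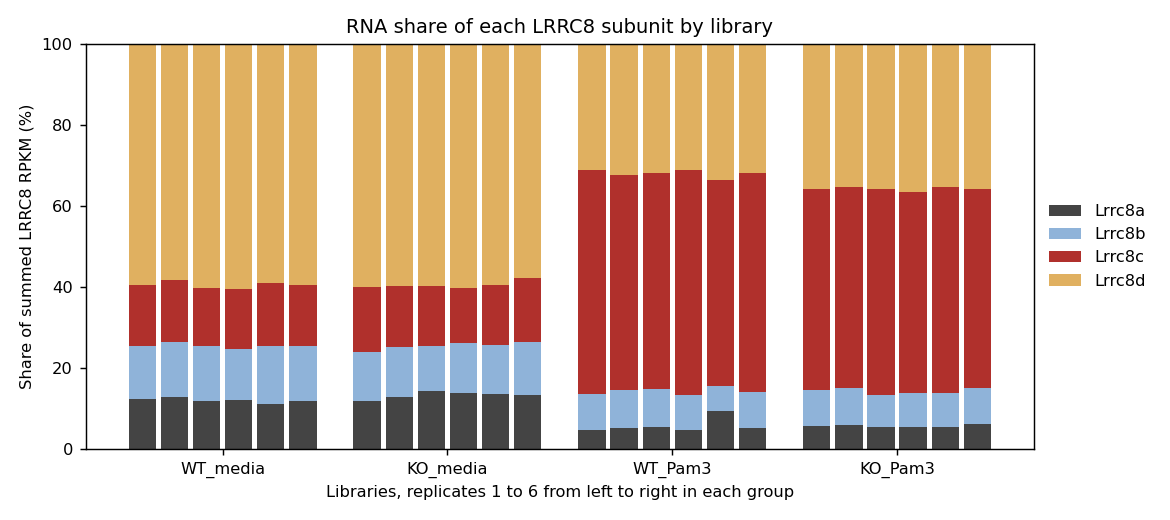
Share of each LRRC8 subunit in the summed LRRC8 RPKM (vertical axis, percent, stacked from 0 to 100) in the 24 libraries, replicates 1 to 6 from left to right in each group; Lrrc8e is too low to be seen. Lrrc8d fills most of the media bars and Lrrc8c 49.1% to 55.6% of the Pam3 bars.

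Neighbours in the genome did not share the size of these changes. Lrrc8c lies between Lrrc8b and Lrrc8d, and its log2 fold change with Pam3 was 2.76 in WT, against 0.28 for Lrrc8b and 0.01 for Lrrc8d. On chromosome 10 Calhm6 lies within 89 kb of Calhm4 and Calhm5. Calhm5 had 0.294 ± 0.0853 CPM (SD, n = 6) in WT_media and 0.476 ± 0.144 in WT_Pam3, a log2 fold change of 0.69 (adjusted p = 0.0095), and -0.18 (adjusted p = 0.459) in KO, each on 6 to 21 reads per library. Calhm2 shares 52 kb of chromosome 19 with Calhm1 and Calhm3, which had 2 and 0 reads in all.

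**Figure D4:**
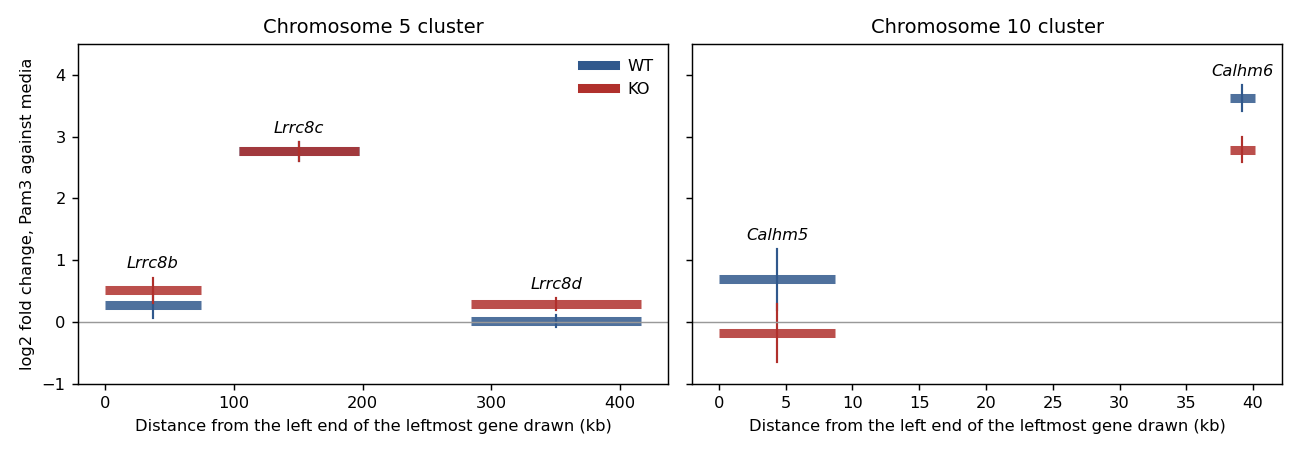
Log2 fold change of Pam3 against media (vertical axis) for the tested genes of the Lrrc8 stretch on chromosome 5 and the Calhm stretch on chromosome 10, drawn along their distance in kb from the leftmost gene shown, with thick bars for the gene's extent and thin lines for 95% intervals in WT and KO. Lrrc8c stands at 2.76 in both genotypes, where the bars coincide, between flanking genes at 0.01 to 0.51; Calhm4, with 1 read, is not drawn.

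KO against WT asks what differs in macrophages from Ninj1 knockout mice, whose libraries kept part of the Ninj1 RNA. In media Calhm6 was higher in KO, and the other 6 channel genes did not pass the test. That is 1 of 7 higher, against 3.03% of all tested genes called in either direction and 1.92% called higher. Calhm6 had 11.6 to 13.2 CPM in WT_media and 14.2 to 21.2 in KO_media, with every KO library above every WT library, as was so for 2.16% of tested genes. The log2 difference was 0.42 (SE 0.0978, adjusted p = 0.0149). KO_media replicate 1 was the highest at 21.2 CPM, and without it the difference was 0.35 (adjusted p = 0.0396).

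Lrrc8b was lower in all 6 KO_media libraries (18.6 to 22.1 CPM against 22.7 to 25.3 in WT_media), as were 2.11% of tested genes, but its log2 difference of -0.22 did not pass (95% interval -0.42 to -0.01, adjusted p = 0.341). Without WT_Pam3 replicate 5, a library outside this comparison that enters the shared estimate of spread, the difference was -0.21 with an adjusted p of 0.000465. In a fit of the 2 media groups alone it was -0.21 with an adjusted p of 0.00434. The 95% intervals of the others were -0.05 to 0.14 for Calhm2, -0.21 to 0.14 for Panx1, -0.07 to 0.21 for Lrrc8a, -0.22 to 0.07 for Lrrc8c and -0.17 to 0.02 for Lrrc8d.

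After Pam3, Calhm2 and Calhm6 were lower in KO and Lrrc8d was higher, 3 of 7 against 4.06% of tested genes called (1.31% higher and 2.75% lower). Calhm2 had 26.7 to 32.1 CPM in WT_Pam3 and 20.8 to 25.9 in KO_Pam3, with no overlap, and its log2 difference was -0.32 (SE 0.0493, adjusted p = 0.000175), or -0.35 without WT_Pam3 replicate 5. Calhm6 had 131 to 209 CPM in WT_Pam3 and 103 to 130 in KO_Pam3. The Calhm6 groups all but touched, and the log2 difference was -0.41 (SE 0.0889, adjusted p = 0.00639), or -0.31 (adjusted p = 0.000844) without WT_Pam3 replicate 5. For Lrrc8d WT_Pam3 spanned 54.6 to 70.8 CPM and KO_Pam3 71.8 to 81.0, all higher, a log2 difference of 0.20 (SE 0.047, adjusted p = 0.0122), or 0.15 (adjusted p = 0.00154) without that library. Groups wholly lower, as for both CALHM genes, were seen for 1.63% of tested genes, and wholly higher, as for Lrrc8d, for 0.894%. Fitted on the Pam3 groups alone, Calhm6 (-0.40, adjusted p = 0.0611) and Lrrc8d (0.22, adjusted p = 0.103) no longer passed.

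The other 4 genes did not pass in Pam3. Lrrc8c had 137 to 209 CPM in WT_Pam3 and 162 to 190 in KO_Pam3, a log2 difference of -0.07 (95% interval -0.21 to 0.07, adjusted p = 0.656) that was -0.14 (adjusted p = 0.0269) without WT_Pam3 replicate 5. Panx1 differed by -0.18 (95% interval -0.36 to 0.01, adjusted p = 0.324), Lrrc8a by 0.07 (-0.08 to 0.22) and Lrrc8b by 0.02 (-0.18 to 0.23). Without WT_Pam3 replicate 5 these were -0.10, 0.16 and -0.10, none called.

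The difference between the genotypes' Pam3 responses was tested as an interaction, called for 0.762% of all tested genes (0.173% higher, 0.589% lower) and for 3 of the 7. Calhm6 had the smaller response in KO (-0.83 on the log2 scale, SE 0.132, adjusted p = 0.00904), starting higher in media and ending lower after Pam3. Calhm2 fell further in KO (-0.36, SE 0.0681, adjusted p = 0.0115). Lrrc8d responded more in KO (0.28, SE 0.0662, adjusted p = 0.0408), but this call was lost without any 1 of 15 of the 24 libraries (adjusted p from 0.0532 to 0.0879). Without WT_Pam3 replicate 5 the 3 values were -0.73, -0.39 and 0.23, all called. The interaction was not called for the other 4 genes, at 0.01 for Lrrc8c (95% interval -0.19 to 0.21) and 0.00 for Lrrc8a (-0.21 to 0.21). It was -0.14 for Panx1 (-0.39 to 0.11) and 0.24 for Lrrc8b (-0.05 to 0.52). Without WT_Pam3 replicate 5 these 4 were -0.07, 0.09, -0.06 and 0.12 in the same order, none called.

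Markers of other cells differed between the genotypes too. Summed granulocyte markers, 9 of 10 tested, came to 61.1 to 71.8 CPM in WT_media and 82.8 to 95.7 in KO_media, and to 39.2 to 62.3 in WT_Pam3 and 48.8 to 57.1 in KO_Pam3. Summed stromal markers, 10 of 10 tested, came to 44.8 to 56.4 CPM in WT_media, 59.2 to 109 in KO_media, 98.6 to 137 in WT_Pam3 and 138 to 189 in KO_Pam3. Of the stromal markers 7 were called higher in KO_media and 4 in KO_Pam3, and of the granulocyte markers 4 and 2. Over all tested genes 1.92% and 1.31% were called higher. No marker of these 2 lists was called lower in KO. Dendritic cell markers, 5 of 8 tested, overlapped in sum between the genotypes (6.17 to 7.20 and 6.42 to 8.40 CPM in media, 10.1 to 14.3 and 11.2 to 13.9 after Pam3), as did endothelial markers, 3 of 4 tested (14.5 to 15.4 and 14.8 to 19.9, then 43.3 to 75.0 and 62.8 to 67.8). In KO_Pam3 1 dendritic cell marker was called higher. Lymphocyte and natural killer cell markers, 3 of 8 tested, stayed at 1.34 to 2.64 CPM in sum, with Gzma at 0 in every library. The macrophage sum was 26837 to 28626 CPM in WT_media and 27428 to 28074 in KO_media, which overlapped. After Pam3 it was 34509 to 39331 in WT_Pam3 and 32523 to 34134 in KO_Pam3, lower in every KO library. Lyz2, at 18404 to 25235 CPM, was the largest part of this sum. Of its 10 markers 3 were called lower in KO_Pam3 and 1 higher, against 2.75% and 1.31% of all tested genes. With Pam3 5 of the 10 rose and 5 fell in WT, and 4 rose and 5 fell in KO. Of all tested genes 40.6% rose and 44.2% fell in WT, and 40.2% and 44.8% in KO. In KO_Pam3 against WT_Pam3, Calhm2 and Calhm6 were lower, Lrrc8d was higher and the other 4 channel genes were not called. What part the cell markers had in the channel genes' differences was not tested.

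Genes that work with the channels were read from lists chosen with earlier results of these data known. Their called counts are to be read against all tested genes, of which 40.6% rose and 44.2% fell with Pam3 in WT and 40.2% and 44.8% in KO. Between genotypes 1.92% of all tested genes were called higher and 1.12% lower in KO_media, and 1.31% and 2.75% in KO_Pam3. Interferon-stimulated genes, the class to which Calhm6 belongs, were higher in KO_media for 14 of 16 (median log2 difference 0.59 against -0.00 over all tested genes) and lower for 0, where 1.92% of all tested genes were called higher. Ifit3, an antiviral effector, had 42.5 ± 4.35 CPM in WT_media and 83.1 ± 42.2 in KO_media (SD, n = 6), with a wide spread in KO. After Pam3 all 16 were higher in each genotype, with medians of 3.98 in WT and 3.26 in KO. The interaction was negative and called for 7 of 16, against 0.589% of tested genes, among them the transcription factor Irf1 (-0.53, adjusted p = 0.00904). Irf1 also crossed over as Calhm6 did, with 84.8 ± 1.67 CPM in WT_media, 97.7 ± 12.9 in KO_media, 914 ± 70.8 in WT_Pam3 and 729 ± 42.8 in KO_Pam3. Its media difference was not called. In KO_Pam3 against WT_Pam3 Irf1 was the only 1 of the 16 called, lower in KO (-0.33). The other 15 were not called, and the median log2 difference of the list was -0.11. Of 8 macrophage signals to natural killer cells, the cytokine Il15 was lower in KO_Pam3 (-0.33, adjusted p = 0.00215) and the other 7 were not called.

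Receptors and enzymes for extracellular nucleotides, which meet the ATP that such channels release, differed with Pam3 in 13 of 14 tested, of which 4 rose and 9 fell in each genotype; over all tested genes 84.8% were called in WT and 85.0% in KO, so the share called is near the background. P2rx7, the ATP-gated channel, fell from 149 ± 4.51 to 13.5 ± 1.13 CPM in WT (log2 -3.47), with a log2 change of -3.60 in KO. Entpd1, the ectoenzyme CD39 that degrades ATP, fell from 331 ± 12.6 to 31.0 ± 0.536 CPM in WT, while the nucleotide receptor P2ry2 rose from 20.6 ± 1.67 to 246 ± 10.6 and the adenosine receptor Adora2a from 0.550 ± 0.172 to 310 ± 18.5. Between genotypes 1 of 14 was higher in KO_media (P2ry14, 0.25), against 1.92% of all tested genes. In KO_Pam3 2 of 14 were lower (Entpd1, -0.33, and P2ry14, -0.21), against 2.75% of all tested genes. In the list of pannexin cleavage and lytic pores, which holds Ninj1 itself, 8 of 11 rose and 2 fell with Pam3 in WT and 9 rose and 2 fell in KO, against the same 84.8% and 85.0% called. By direction, 40.6% of all tested genes rose and 44.2% fell in WT, and 40.2% and 44.8% in KO. The median log2 fold change of this list was 2.05 in WT and 1.83 in KO. Xkr8, a phospholipid scramblase, rose from 7.07 ± 0.622 to 165 ± 5.86 CPM in WT.

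Among genes of cell volume and osmolyte transport 7 of 19 rose and 10 fell with Pam3 in each genotype, shares close to the 40.6% and 44.2% of all tested genes in WT. The potassium chloride cotransporter Slc12a4 rose from 51.7 ± 2.37 to 257 ± 9.46 CPM in WT, and Tmem206, the proton-activated chloride channel, fell from 67.8 ± 3.57 to 23 ± 1.77. In KO_Pam3 1 of 19 was higher, the water and glycerol channel Aqp9 (0.47), against 1.31% of all tested genes. Lower there were 3 of 19, Ttyh2 (-0.27), Slc12a7 (-0.18) and the taurine transporter Slc6a6 (-0.23), against 2.75%. In media 0 of 19 were called, against 3.03% of all tested genes. Of genes for cyclic dinucleotide sensing and transport 5 of 10 rose and 4 fell with Pam3 in each genotype, again near the background. The sensor Tmem173 (STING) fell from 49.6 ± 2.37 to 11.7 ± 1.12 CPM in WT while Lrrc8c rose. Enpp1, which hydrolyses cyclic dinucleotides outside the cell, was lower in KO in media (-0.19, adjusted p = 0.0307) and after Pam3 (-0.42, adjusted p = 4.56e-05). Samhd1, a nucleotide hydrolase of the same list, was higher in KO_media (0.25, adjusted p = 0.0102, all 6 libraries) and had a called interaction of -0.33 (adjusted p = 0.0401). Connexins form the other large-pore family: 2 of 20 were tested, and Gja1, a gap junction protein, rose in WT from 2.37 ± 0.358 to 85.5 ± 15.6 CPM. Its KO levels were 3.19 ± 0.804 and 95.9 ± 4.61.

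The genes most like each channel gene were taken by Pearson's r of log2 CPM over the 24 libraries, among 11145 genes. Since Pam3 separates the libraries, most of this likeness is the 4 group means, and it is a description. Lrrc8c was most like Nrp2, Cflar and Gng12 (each r = 0.999), and Calhm6 most like Cxcl16, Sap30 and Irf1 (each 0.997). Calhm2 went with Ptpro (0.965), Adap2 (0.960) and Lrp4 (0.959), Lrrc8b with Erlin2 (0.980), Ccdc88a (0.971) and Cbl (0.967), and Lrrc8d with Nol4l (0.927), Tent4b (0.892) and Zfp451 (0.891). Lrrc8a was most like Phax (0.887), Gpsm3 (0.884) and Pstpip1 (0.875). Panx1 had the weakest likeness, with Dusp23 at 0.745, Fmc1 at 0.739 and Rit1 at 0.725, which became 0.574, 0.592 and 0.555 without WT_Pam3 replicate 5.

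With the group means taken out, Calhm6 was most like Myd88 (0.903, 0.838 without WT_Pam3 replicate 5), Sap30 (0.896) and Psme2b (0.855), and Calhm2 most like Arhgap39 (0.846), Kbtbd11 (0.811) and Mmp8 (0.794). For the LRRC8 genes such values rested largely on that library: Lrrc8b with Erlin2 went from 0.972 to 0.668 and Lrrc8a with Lsm3 from 0.856 to 0.554. Among the channel genes themselves, Lrrc8b and Lrrc8d correlated at 0.80 over 24 libraries and 0.09 without it, Lrrc8b and Lrrc8c at 0.83 and 0.37, and Lrrc8a and Lrrc8b at -0.78 and -0.15. Lrrc8c and Lrrc8d kept the closest relation, at 0.86 and 0.60. Some pairs were stronger without WT_Pam3 replicate 5: Calhm2 went from 0.05 to 0.51 with Calhm6, from 0.11 to -0.48 with Lrrc8c and from 0.11 to -0.52 with Lrrc8d.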

How the data were processed

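GSNAP, a read aligner, and GRCm38 are named in the submitters' processing notes; the sources used here give no version, annotation or counting settings. Each of the 24 deposited tables gives whole-number read counts and RPKM for 52636 gene models, both made by the authors. In the deposited values RPKM is a gene's count divided by a fixed gene length and a library scale that is not the plain total. Symbols came from GENCODE mouse release 21; 147 models without one held 0.00387% of reads and were kept under their gene IDs.

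Counts were tested with edgeR 4.0.16 (TMM scaling, filterByExpr, quasi-likelihood F-test, group means, all 24 libraries) in R 4.3.3, with Benjamini-Hochberg adjustment over 14435 genes and an adjusted p under 0.05 as the threshold. The biological coefficient of variation was 8.21%. CPM are on TMM library sizes, whose factors were 1.170 to 1.203 in media and 0.813 to 0.862 after Pam3. A count of 3, the floor for detection, is 0.0627 to 0.111 CPM. DESeq2 1.42.0 on counts and limma 3.58.1 on log2 RPKM were alternatives, with other scalings, no filter, 2-group fits, exon-union lengths and each library left out. The test was tried on simulated counts first.

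The members and gene lists were chosen with earlier results of these data known. Named are the 7 members, their 7 relatives, Ninj1, up to 6 genes per list and comparison by adjusted p, and the 3 most like each member. Some genes under this rule are not reported here. Promoter sequences are RefSeq's, on GRCm38.p6.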

Additional observations from a re-analysis of the deposited data

Results flagged for a closer look

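In 28 group checks of the 7 genes' CPM (4 groups of 6 libraries each), a lone library at one end of its group was singled out by Dixon's criterion in 4, all of them WT_Pam3 replicate 5; chance singles out about 1 in 20 groups, and the 7 genes share their libraries. That library had 209 CPM of Calhm6 against 131 to 153 in the other 5, 15.3 of Lrrc8a against 10.5 to 11.5, 16.1 of Lrrc8b against 30.2 to 32.4, and 54.6 of Lrrc8d against 65.3 to 70.8. In the shares of summed LRRC8 RPKM it stood apart with 9.23% for Lrrc8a (4.61% to 5.49% in the others) and 6.21% for Lrrc8b (8.77% to 9.48%). KO_media replicate 6 had a Lrrc8d share of 58.0% against 59.4% to 60.1%. The labels give nothing that sets either library apart.

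Pam3 responses that differed between the genotypes by edgeR's interaction test were those of Calhm6 (-0.83, adjusted p = 0.00904), Calhm2 (-0.36, adjusted p = 0.0115) and Lrrc8d (0.28, adjusted p = 0.0408), each as KO minus WT on the log2 scale. The Lrrc8d call was lost without any 1 of 15 of the 24 libraries, while those of Calhm6 and Calhm2 were kept without any 1 library.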

How the results depend on the processing

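No paired analysis was possible because the titles carry no replicate numbers; replicates were numbered in accession order. Calhm2 and the Pam3 responses of Calhm6 and Lrrc8c kept their direction and call under every alternative run. Library size only gave 412 higher and 220 lower genes in KO against WT after Pam3, 3584 and 3685 genes higher with Pam3 in WT and KO, and 54 genes with a lower interaction. It put Pam3 against media at -0.41 (Panx1), -0.24 (Lrrc8b) and -0.51 (Lrrc8d) in WT and -0.52, 0.03 and -0.19 in KO. No filter gave 183 lower in KO_Pam3 and 41 lower interactions. Fits of 2 groups gave 581 higher and 531 lower in KO_media with Lrrc8b at -0.21, 63 higher and 114 lower in KO_Pam3 with Calhm6 at -0.40 and Lrrc8d at 0.22, and Lrrc8b at 0.28 for Pam3 in WT. DESeq2 gave 291 lower in KO_media and interactions of 76 higher and 228 lower. limma gave 43 higher interactions (pseudocount 1) and Lrrc8d at 0.28 (adjusted p = 0.0568, pseudocount 0.1). The cause of each was not tested.

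Leaving out both WT_Pam3 replicate 5 and KO_media replicate 1 gave 541 higher and 515 lower in KO_media with Lrrc8b at -0.21 (called), 389 higher and 936 lower in KO_Pam3 with Lrrc8a at 0.16 and Lrrc8c at -0.14 (both called), and interactions of 91 higher and 411 lower. Exon-union lengths gave shares of 20.3%, 22.4%, 7.68% and 7.83% for Lrrc8a in WT_media, KO_media, WT_Pam3 and KO_Pam3, 22.8%, 20.7%, 11.6% and 12% for Lrrc8b, 23.1%, 23.1%, 66.2% and 63.4% for Lrrc8c, and 33.8%, 33.8%, 14.5% and 16.7% for Lrrc8d.

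With each library left out in turn, genes higher in KO_media ranged from 154 to 658 (277 with all) and lower from 84 to 616 (161), those higher in KO_Pam3 from 106 to 352 (189) and lower from 267 to 826 (397), and interactions higher from 8 to 102 (25) and lower from 20 to 442 (85). The highest of each came without WT_Pam3 replicate 5. Lrrc8b ranged from -0.24 to -0.19 in KO_media, Lrrc8c from -0.14 to -0.03 in KO_Pam3, and the Lrrc8d interaction from 0.23 to 0.31.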
